A study of Mus musculus with 56 samples.

Results

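The mitosis and G2/M genes are a fixed list of 45 genes whose products drive or mark the passage of a cell from the end of DNA replication through division. Members were named by gene symbol, and all 45 were found among the 50600 genes of the tables. Their mRNA was measured in 56 libraries from mouse thymic epithelial cells (TECs), 28 of cortical TECs (cTECs) and 28 of medullary TECs (mTECs), across late pregnancy and the weeks after birth. The mothers were B6.SJL females carrying the CD45.1 allele and the sires BALB/cJ males, and litters were taken away at parturition. The stages were a non-pregnant control (NPC), 2 days before birth (D-2, day 18 of gestation by the study's methods), the day of parturition (D0) and days 1 to 28 afterwards (D1 to D28). In both cell types 6 stages (NPC, D-2, D0, D3, D6, D12) had 3 samples, while 10 others were sampled in a single mouse. Each sample came from 1 mouse, and cells were sorted as EpCAM+CD45-, with cTECs UEA1- and mTECs UEA1+. The sort selects against CD45+ leukocytes, but thymocyte and leukocyte transcripts remained in the samples, as given below. The labels do not state the age of the females or whether a cTEC and an mTEC sample with the same number came from the same animal. All TECs were sorted whatever their stage of the cell cycle, so in these bulk samples fewer dividing cells and less mRNA per dividing cell cannot be told apart.

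A cell enters mitosis when cyclin B binds and activates CDK1, after which condensins compact the chromosomes, the kinetochores attach them to spindle microtubules, and the spindle checkpoint holds back the anaphase-promoting complex until every chromosome is attached. The genes of this machinery are transcribed mainly in G2 and M and are held low in resting cells. Their promoters often pair CHR elements (cell-cycle genes homology region), which the DREAM and MuvB complexes bind through LIN54, with CCAAT boxes, which the activator NF-Y binds. In the thymus, mTECs are known as an epithelium that turns over continuously, while adult cTECs divide less often. The 45 genes were grouped here into 9 roles, from cyclins and CDK1 to the genes of anaphase and mitotic exit.

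Of the 45 genes, 37 had a promoter window in the RefSeq table for GRCm38.p6, running from 250 bases before to 50 bases after the annotated start. The letters CCAAT, searched on both strands and therefore also as ATTGG, were present in 28 of these windows (75.7%), against 37.9% of the windows of all 27025 genes in that table. The CHR letters, TTTGAA or TTCGAA on either strand, were present in 29 (78.4%), against 19.4% of all windows. Both motifs together were found in 26 (70.3%), against 7.7%. Of the E2F site only 2 forms, TTTCCCGC and TTTGGCGC, were searched, on both strands. They were found in 1 member window (2.7%), against 1.6% of all windows, and other forms were not counted. In 24 windows of a list of G1/S and DNA replication genes, CCAAT was present in 66.7%, CHR in 16.7% and these 2 E2F forms in 33.3%. These matches describe letters only and are not evidence of binding. The 8 windows below, cut to 120 bases before and 30 bases from the start, belong to the 6 genes that were called higher in mTECs at D12 than at D-2 and to Bub3 and Pttg1, the 2 genes with the smallest difference in that comparison. Capitals mark the CCAAT and CHR letters, which may stand as ATTGG and TTCAAA when they lie on the other strand.
Cdk1 (chr10:69352883-69353032, minus strand): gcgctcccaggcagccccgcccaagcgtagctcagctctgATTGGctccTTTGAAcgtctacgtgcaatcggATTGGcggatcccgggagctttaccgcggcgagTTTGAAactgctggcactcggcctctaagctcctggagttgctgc
Mki67 (chr7:135716350-135716499, minus strand): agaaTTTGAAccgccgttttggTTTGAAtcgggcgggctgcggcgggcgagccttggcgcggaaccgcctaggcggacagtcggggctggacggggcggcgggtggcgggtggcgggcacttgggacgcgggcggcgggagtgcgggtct
Top2a (chr11:99024160-99024309, minus strand): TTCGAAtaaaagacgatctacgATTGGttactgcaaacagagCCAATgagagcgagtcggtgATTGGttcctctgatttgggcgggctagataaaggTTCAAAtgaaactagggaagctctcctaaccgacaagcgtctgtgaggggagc
Bub1b (chr2:118598091-118598240, plus strand): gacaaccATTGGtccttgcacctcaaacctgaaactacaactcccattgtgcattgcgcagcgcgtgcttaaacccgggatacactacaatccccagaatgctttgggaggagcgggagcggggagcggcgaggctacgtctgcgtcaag
Cenpe (chr3:135212443-135212592, plus strand): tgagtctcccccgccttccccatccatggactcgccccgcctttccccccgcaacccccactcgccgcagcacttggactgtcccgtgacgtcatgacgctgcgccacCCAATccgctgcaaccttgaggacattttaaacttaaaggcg
Cdc20 (chr4:118437314-118437463, minus strand): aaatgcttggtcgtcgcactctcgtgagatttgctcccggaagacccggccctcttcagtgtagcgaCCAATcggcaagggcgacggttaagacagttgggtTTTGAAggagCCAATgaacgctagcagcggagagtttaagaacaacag
Bub3 (chr7:131560250-131560399, plus strand): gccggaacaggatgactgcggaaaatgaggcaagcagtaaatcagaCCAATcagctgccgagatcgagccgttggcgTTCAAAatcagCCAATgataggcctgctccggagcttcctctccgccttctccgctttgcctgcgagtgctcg
Pttg1 (chr11:43425952-43426101, minus strand): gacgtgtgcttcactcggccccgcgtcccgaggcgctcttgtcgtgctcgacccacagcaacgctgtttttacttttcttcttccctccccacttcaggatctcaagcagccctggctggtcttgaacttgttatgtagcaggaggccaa
Cdk1, Top2a and Cdc20 carried both motifs within the stretch shown, and Mki67 and Bub1b carried both within the longer window. Cenpe had CCAAT alone. Bub3, with a log2 difference of 0.06 in that comparison, also carried both motifs, and Pttg1 carried neither.

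Library totals ran from 4561208 to 108547384 counts, with a median of 17972566, and the 45 genes took 0.0233 to 0.0737% of the counts in cTECs and 0.0325 to 0.204% in mTECs. The 4 libraries that detected the fewest genes at an FPKM of at least 0.5 are called libraries of few genes here. They had 9998 in cTEC D3 replicate 2, 11686 in mTEC D3 replicate 1, 12439 in cTEC D20 and 13154 in mTEC D3 replicate 2. The rest had 13696 to 18639, so no clear gap divides the 2 sets. These libraries also had 25, 20, 15 and 12 of the 45 genes at a count of 0. Counts of 0 were not confined to them, with 13 genes in cTEC D1, 11 in cTEC D-2 replicate 1, 9 in cTEC D0 replicate 1 and 8 in cTEC NPC replicate 4. FPKM (fragments per kilobase of transcript, scaled to library depth) corrects for length and depth, so levels can be set side by side between genes. Markers of both populations were summed, and the cTEC sums overlapped between the sorted populations. Summed over 9 genes, cTEC markers reached 1030 to 12050 FPKM in cTECs and 481 to 4690 in mTECs, and at D-2 the cTECs had 1030 to 1948. The 10 mTEC markers summed to 10510 to 19920 FPKM in mTECs and 3679 to 8133 in cTECs. In cTECs at D-2 the mTEC markers summed to 5823 to 8133 FPKM, above the cTEC markers of these samples. At D0 the cTECs had 6551 to 7895 FPKM of mTEC markers against 2155 to 2671 of cTEC markers. The sums cover different genes, and in cTECs the mTEC list was led by Ccl21a, with a median of 4091 FPKM.

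In mTECs the mitotic genes were low from birth to D3 and higher from D10, where they overlapped NPC. The mean of log2(FPKM + 0.5) over the 45 genes, used as a summary of the level, was 3.26 ± 0.32 (SD, n = 3) in NPC, 2.34 ± 0.68 at D-2, 1.85 ± 0.76 on the day of birth and 1.5 ± 0.32 on D3. It was 2.69 ± 0.59 on D6 and 3.61 ± 0.28 on D12. All 8 mTEC samples from D10 to D28 ran from 3.08 to 3.93, above all 8 samples from D0 to D3, which ran from 1.16 to 2.72. These 2 spans of days were chosen after their values were seen. In cTECs the same summary moved within a narrower and lower band, from 1.93 ± 0.07 in NPC to 1.18 ± 0.52 at D-2 and 0.97 ± 0.11 at D0, and back to 1.83 ± 0.06 at D6 and 2.05 ± 0.32 at D12.

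**Figure D1:**
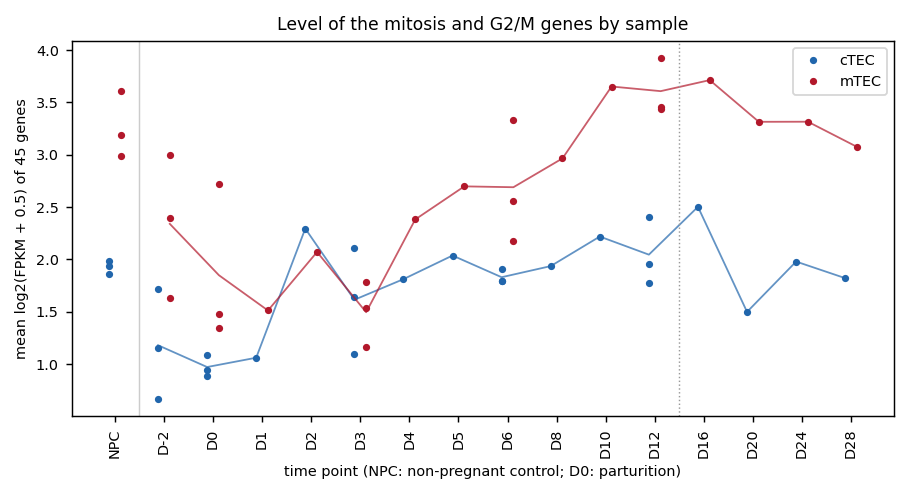
Mean log2(FPKM + 0.5) of the 45 mitosis and G2/M genes in each of 28 cTEC (blue) and 28 mTEC (red) samples, by time point in order and not to scale in days. Points are samples, lines join the means of the time points from D-2 on, and the dotted line divides D12 from D16. The mTEC samples from D10 on lie between 3.08 and 3.93, above every cTEC sample and above the mTEC samples from D0 to D3.

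Taken gene by gene over the 6 replicated time points, 31 of the 45 genes had their highest mean FPKM in mTECs at D12, where 22.5% of all 17743 genes tested in mTECs had theirs, and 9 had it in NPC (18.4% of all genes). None had its lowest mean at D12 or in NPC. The lowest mean fell at D3 for 21 genes and at D0 for 16, against 25.5% and 14.3% of all genes. The 4 libraries of few genes were also left out, a choice made after seeing the data. Then 32 genes were highest at D12 (24.7% of all genes) and 29 were lowest at D3 (26.2%), where 1 mTEC sample remained. Of the 44 genes that passed the filter in cTECs (a mean FPKM of at least 0.5, which Espl1 did not reach), 25 were lowest at D0, against 11.1% of all 15845 genes, and none was highest there.

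Late pregnancy was compared with the non-pregnant state to show where the genes stood before birth. In mTECs, D-2 lay below NPC for 40 of 45 genes, with a median log2 fold change of -1.51, against 0.12 over all genes tested. No gene passed the test, which in limma-voom required a 2-fold difference and a p of no more than 0.01 after Benjamini-Hochberg adjustment over all genes, and neither did any with edgeR's quasi-likelihood test or DESeq2, while 0.569% of all genes were called. At an unadjusted p under 0.05 there were 29 of the 45 genes, against 16.8% of all genes. All 3 D-2 samples lay below all 3 NPC samples for 14 genes (31.1%), as for 8.16% of all genes, among them Mki67, Top2a, Plk1, Aurkb, Bub1, Birc5, Cdc20 and Foxm1. Mki67, the chromosome surface protein behind the Ki-67 antigen, was at 14, 15.7 and 27.5 FPKM in NPC and at 9.83, 12.3 and 2.75 at D-2, a log2 difference of -1.76 ± 0.43 (SE) with an adjusted p of 0.0351. Cenpe, the kinetochore motor that carries chromosomes to the spindle equator, had the smallest adjusted p, 0.0312, with 4.82, 9.52 and 4.95 FPKM in NPC and 2.31, 7.03 and 0.6 at D-2. These differences depended on D-2 replicate 4, the deepest of the 3 D-2 libraries with 48195568 counts and the lowest in Mki67, Top2a, Cenpe and Bub1b: without it the median was -0.33 and the Cenpe estimate turned to 0.35.

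After birth the mTECs were first compared with D-2 at D3 and D6. At D3 the median log2 fold change of the 45 genes was -0.71 and at D6 it was 1.23, while the medians of all genes were -0.27 and -0.03. The fit called 0 of the 45 in both comparisons, as did the quasi-likelihood test and DESeq2, beside 0.0113% and 0.0113% of all genes. At an unadjusted p under 0.05 there were 6 genes at D3 (15.3% of all genes) and 9 at D6 (7.55%). All D3 samples lay below all D-2 samples for 4 genes (8.89%), against 10.9% of all genes. They lay above for 2 (4.44%), Pttg1 and Cenpf, against 7.25%. All D6 samples lay above all D-2 samples for 2 (4.44%), Pttg1 and Spc24, against 10.9%. Of the D3 libraries, 2 are among those with few genes detected, and without the 4 such libraries the D3 median was 0.03. Without D-2 replicate 4 the D6 median was 0.07.

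By D12 the mitotic genes of mTECs stood above D-2. Of the 45 genes, 6 rose (13.3%) and none fell, against 0.124% of all 17743 genes called higher, which is 22 genes in all. The median log2 fold change was 2.37, beside -0.02 over all genes, and 44 of 45 estimates were positive. At an unadjusted p under 0.05 there were 40 of the 45, against 15.5% of all genes, and all D12 samples lay above all D-2 samples for 24 (53.3%), against 11.9%.
Cdk1, the kinase that drives entry into mitosis, was at 29.8, 11.8 and 8.96 FPKM at D-2 and at 33.7, 59.3 and 59.8 at D12. The D12 samples were all above the D-2 samples, and the log2 fold change was 2.59 ± 0.48 (SE) (adjusted p = 0.00783).
Mki67 was at 26.7, 32.2 and 22.2 FPKM at D12, again clear of the D-2 values given above, and rose by 2.42 ± 0.42 (SE) on the log2 scale (adjusted p = 0.00599).
Top2a encodes topoisomerase IIα, which untangles sister chromatids. It went from 14, 20.8 and 4.41 FPKM at D-2 to 49.4, 67.4 and 51.6, a log2 fold change of 2.54 ± 0.47 (SE) (adjusted p = 0.00748).
Bub1b, the checkpoint kinase-like protein BUBR1, was at 4.38, 4.29 and 0.85 FPKM at D-2 and at 11.8, 10.7 and 8.82 at D12. It rose by 2.96 ± 0.51 (SE) (adjusted p = 0.00593), and the groups did not overlap.
Cdc20, the activator of the anaphase-promoting complex that the checkpoint restrains, was at 4.84, 9.39 and 7.58 FPKM at D-2 and at 25.9, 21 and 37.3 at D12, with a log2 fold change of 2.32 ± 0.39 (SE) (adjusted p = 0.00553).
Cenpe had the largest fitted change, 3.96 ± 0.69 (SE) (adjusted p = 0.00618), although its FPKM overlapped, with 2.8, 9.92 and 6.07 at D12 beside 2.31, 7.03 and 0.6 at D-2.
The fit gives deep libraries more weight, and the deepest D-2 library, replicate 4, was the lowest in 5 of these 6 genes. With every sample weighted alike, the mean log2 level of the 45 genes differed by 1.27 between D12 and D-2, and by 0.91 without D-2 replicate 4. Without D-2 replicate 4 the median was 1.28 and no gene was called, and leaving out any other of the 6 samples left 0 to 2 calls. The calls also depended on the tool, with 0 by the quasi-likelihood test, whose median was 1.37, and 1 by DESeq2, Mki67, with a median of 1.34. An adjusted p of 0.05 in place of 0.01 gave 21 genes. The shares of all genes called at these other settings are not given here, so these counts cannot be set against a background.

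**Figure D2:**
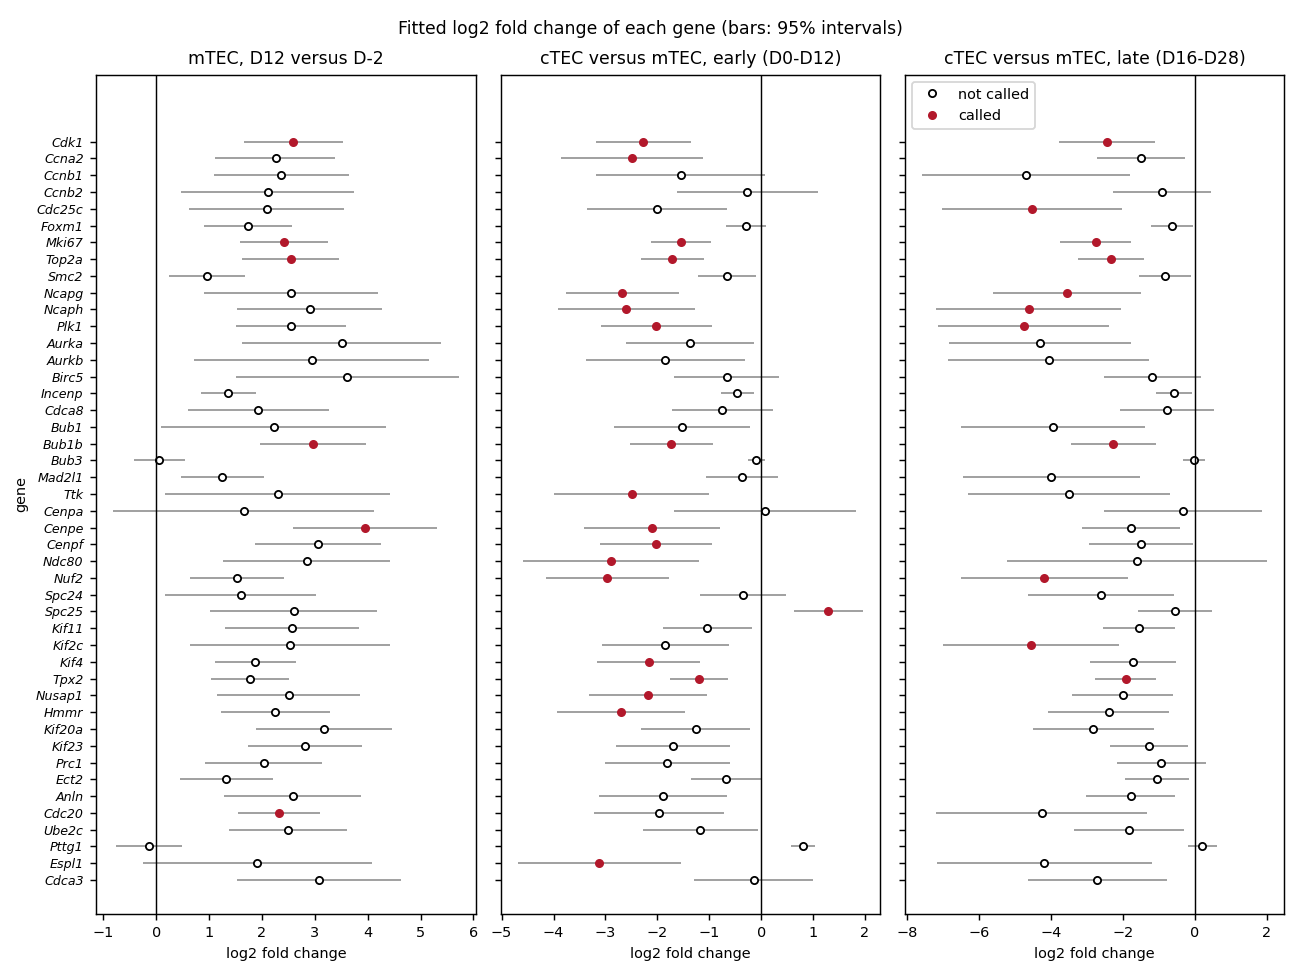
Fitted log2 fold change of each of the 45 genes in 3 comparisons, with bars of 95% intervals. Red points passed the test and open points did not. In mTECs at D12 versus D-2, 44 of 45 estimates lie above 0 and 6 genes were called. In the cTEC versus mTEC panels most genes lie below 0, with 18 called lower and Spc25 called higher in early samples and 11 called lower in late samples.

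The 4 mTEC samples from D16 to D28 lay between 3.08 and 3.71 in the mean log2 level, D16 within the 3.44 to 3.93 of D12 and the others below it. Late samples (D16 to D28, n = 4) were compared with early ones (D0 to D12, n = 18) in mTECs, and 42 of 45 genes had a positive estimate, with a median of 0.84 beside -0.01 over all genes. None passed the test by limma-voom, the quasi-likelihood test or DESeq2, and 0.0620% of all genes did, while 21 of the 45 had an unadjusted p under 0.05, against 20% of all genes. Mki67 was at 27.9, 23.2, 21.6 and 16.9 FPKM in the samples of D16, D20, D24 and D28. Its 18 early samples had a lowest value, median and highest value of 3.58, 9.65 and 32.2 FPKM, and the estimate was 1.02 ± 0.39 (SE) (adjusted p = 0.142). Ccnb1, cyclin B1, had the values 28, 16.5, 26.1 and 15.5 in the late samples against 0, 5.9 and 20.01 in the early ones, with an estimate of 1.96 ± 0.59 (SE) (adjusted p = 0.07). When D12 was counted as late, 5 genes were called higher: Anln, Ccnb2, Mki67, Top2a and Tpx2. The share of all genes called at that setting is not given here.

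The roles were alike in their direction in mTECs between D-2 and D12. The medians of the 9 roles lay between 2.18 for the cyclins, CDK1 and their regulators and 3.03 for the mitotic kinases, and the only negative estimate among the 45 was that of Pttg1. Values per sample follow for the leading genes of each role.
Among the cyclins and regulators, Ccnb1 was at 10.4, 25.3 and 18.4 FPKM in NPC, 6.61, 15.7 and 3.27 at D-2, 5.85, 0 and 2.15 at D0, 0, 0 and 3.78 at D3, 12.4, 4.21 and 5.84 at D6 and 20.01, 16.9 and 5.95 at D12 in mTECs. Foxm1, the forkhead factor that activates many G2/M genes, was at 6.63, 5.55 and 9.99 in NPC, 3.0, 4.72 and 1.88 at D-2, 2.81, 36.2 and 3.42 at D0 and 36, 9.42 and 15 at D12. The value of 36.2 belongs to D0 replicate 2, in which Ccnb1 and 4 other genes of the 45 had a count of 0 and Kif23 reached 67.6, so that library differed from its replicates in both directions. Mouse pseudogenes named after Ccnb1, Ccnb2 and Kif4 are annotated, and reads shared with such copies would make the values of these 3 genes uncertain.
Top2a stands for the proliferation markers and condensin. In mTECs it was at 36.4, 28.9 and 52.8 FPKM in NPC, 8.78, 34.1 and 6.08 at D0, 5.14, 17.3 and 10.8 at D3, 41.7, 18.7 and 17 at D6 and 57.5, 34.6, 53.1 and 28.8 at D16, D20, D24 and D28. Among these D0, D3 and D6 samples, D0 replicate 2 and D6 replicate 1 lay within the NPC range and the others below it.
Among the mitotic kinases, Plk1, which acts in centrosome maturation and spindle assembly, was at 14.2, 7.15 and 10.3 in NPC, 3.58, 6.61 and 3.87 at D-2, 2.62, 3.0 and 0.94 at D0, 3.49, 3.8 and 1.83 at D3 and 7.0, 17.7 and 9.11 at D12. In the chromosomal passenger complex, which corrects faulty attachments, the kinase Aurkb was at 12.5, 11.5 and 9.51 in NPC, 3.33, 5.63 and 2.23 at D-2, 1.28, 0 and 1.41 at D0 and 19.6, 12.7 and 5.4 at D12. Its partner Birc5 (survivin) was at 27.4, 15.8 and 16.9 in NPC, 3.13, 10.1 and 1.06 at D-2 and 19.2, 34.9 and 5.73 at D12. For Aurkb and Birc5 D12 replicate 3 was the lowest D12 sample and lay within the D-2 range.
The checkpoint kinase Bub1 was at 3.87, 2.84 and 5.16 FPKM in NPC, 2.76, 1.19 and 1.17 at D-2 and 5.99, 5.15 and 4.43 at D12, with no overlap between D-2 and either of the others. Cenpa, the histone H3 variant that marks centromeres, did not follow this order, with 0, 6.13 and 7.84 in NPC, 3.18, 7.61 and 1.98 at D-2 and 9.85, 6.91 and 4.67 at D12. Kif11, the kinesin that pushes spindle poles apart, was at 2.36, 3.88 and 9.29 in NPC, 3.87, 5.57 and 0.83 at D-2 and 1.86, 9.46 and 4.22 at D12, and these groups overlapped. Cdc20 was at 18.2, 12.3 and 17.1 in NPC, below all of D12 and above all of D-2.

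**Figure D3:**
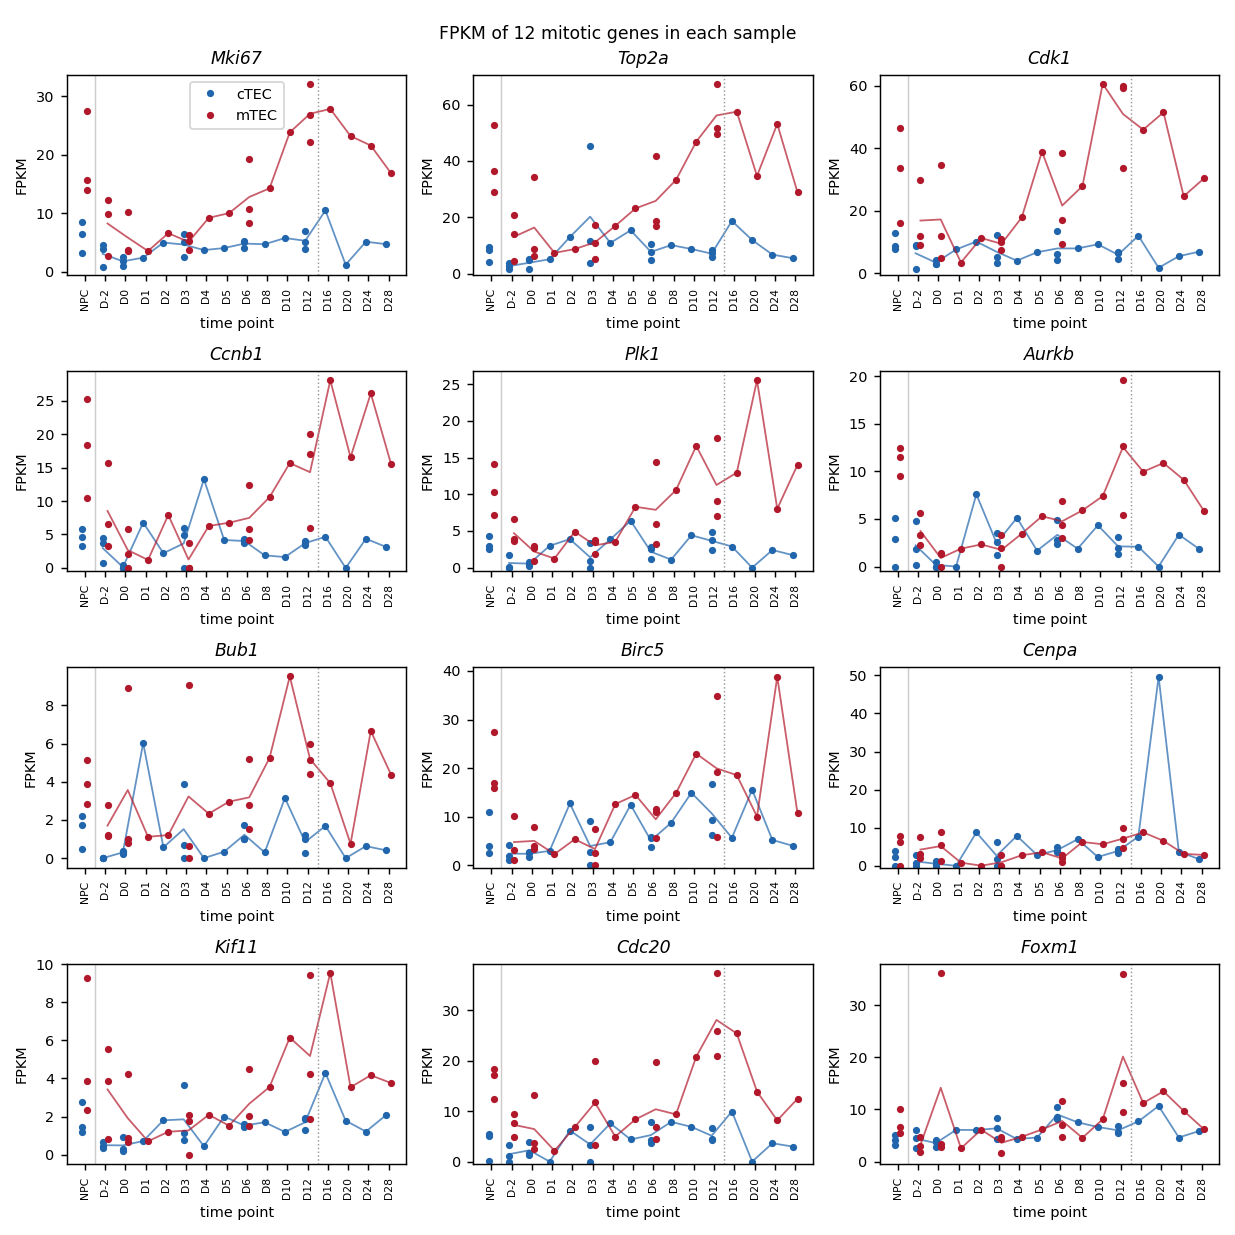
FPKM of 12 of the genes in each sample (points) of cTECs (blue) and mTECs (red) by time point, with lines joining time point means from D-2 on; each panel has its own axis, and the axis of days is not to scale. Mki67, Top2a, Cdk1, Plk1 and Aurkb in mTECs run low from D0 to D3, apart from D0 replicate 2 for Mki67, Top2a and Cdk1, and higher from D10, while the cTEC values stay low apart from single libraries such as D3 replicate 2 for Top2a (45.2) and D20 for Cenpa (49.6).

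In cTECs the mitotic genes were lowest around birth. At D-2, 37 of the 44 genes tested had a negative estimate against NPC, with a median of -0.86 beside 0.03 over all genes. At D12, 42 of 44 were positive against D-2, with a median of 1.52 beside 0.04, and the medians at D3 and D6 were 0.64 and 1.12. No gene passed the test in any of these 4 comparisons, while 0.0947% of all 15845 genes were called for D-2 against NPC, 0.114% for D3, 1.58% for D6 and 0.770% for D12. The numbers with an unadjusted p under 0.05 were 8, 9, 9 and 14 of 44, against 8.36%, 18.9%, 19.0% and 12.3% of all genes. DESeq2 called 2 genes in each of the 4 comparisons, Bub1 and Top2a, and the quasi-likelihood test called Top2a at D6 and D12. The groups did not overlap for 7 genes below NPC at D-2 (15.9%, 7.56% of all genes), 7 above D-2 at D3 (15.9%, 7.07%), 9 at D6 (20.5%, 12.6%) and 16 at D12 (36.4%, 13.4%).
Mki67 in cTECs was at 6.53, 8.5 and 3.2 FPKM in NPC, 4.53, 3.85 and 0.91 at D-2, 1.81, 2.57 and 1.09 at D0, 5.3, 5.19 and 4.06 at D6 and 3.88, 6.96 and 5.16 at D12. The D12 estimate against D-2 was 1.21 ± 0.62 (SE) (adjusted p = 0.469), and the 2 groups overlapped. Top2a was at 9.55, 4.07 and 8.27 in NPC, 2.59, 3.56 and 1.76 at D-2, 5.06, 4.71 and 1.71 at D0, 10.5, 4.81 and 7.72 at D6 and 5.79, 8.19 and 7.19 at D12, and every NPC, D6 and D12 sample lay above every D-2 sample. Bub1 had a count of 0 in all 3 D-2 samples, against 1.73, 2.2 and 0.49 FPKM in NPC and 0.29, 1.02 and 1.22 at D12, so no fold can be given.
Plk1 was at 3.01, 4.34 and 2.52 FPKM in NPC, 0, 1.79 and 0.11 at D-2, 0.56, 0.79 and 0.28 at D0 and 2.36, 4.9 and 3.7 at D12, again with NPC and D12 above all of D-2. Kif11 separated in the same way, with 1.46, 2.78 and 1.19 in NPC, 0.45, 0.67 and 0.36 at D-2, 0.92, 0.32 and 0.21 at D0 and 1.3, 1.89 and 1.91 at D12. Cdk1 showed no such separation, with 7.8, 12.8 and 8.76 in NPC, 8.63, 9.11 and 1.48 at D-2, 4.36, 2.97 and 2.98 at D0 and 4.57, 6.87 and 6.4 at D12. Its D0 and D12 values lay below all of NPC and overlapped D-2.
Ccnb1 was at 4.68, 5.89 and 3.33 in NPC, 0, 0 and 0.4 at D0 and 3.68, 4.04 and 3.41 at D12, so that D0 lay below both. Aurkb was at 5.06, 0 and 2.86 in NPC, 0, 0 and 0.52 at D0 and 1.3, 3.1 and 1.96 at D12. Birc5 was at 11, 4.02 and 2.49 in NPC, 2.53, 2.77 and 1.78 at D0 and 6.17, 16.6 and 9.3 at D12. For both genes all D12 values lay above all D0 values, and D0 overlapped NPC. Cdc20 was at 5.05, 0.05 and 5.48 in NPC, 1.63, 3.8 and 1.3 at D0 and 4.49, 6.6 and 4.28 at D12, and Cenpa at 4.01, 0 and 2.21 in NPC, 0, 0.38 and 1.25 at D0 and 3.49, 3.8 and 4.4 at D12, with the same order. Foxm1 ran from 2.67 to 10.7 over all 28 cTEC samples, a narrower span than in mTECs (1.7 to 36.2).
Late samples were also compared with early ones in cTECs. The median estimate of the 44 genes was 0.03 beside -0.04 over all genes, with 23 positive and 21 negative. None was called by limma-voom, the quasi-likelihood test or DESeq2, beside 1.41% of all genes, and 7 had an unadjusted p under 0.05, against 27.2%. Without cTEC D20 and the other 3 libraries of few genes the median was 0.52.

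**Figure D4:**
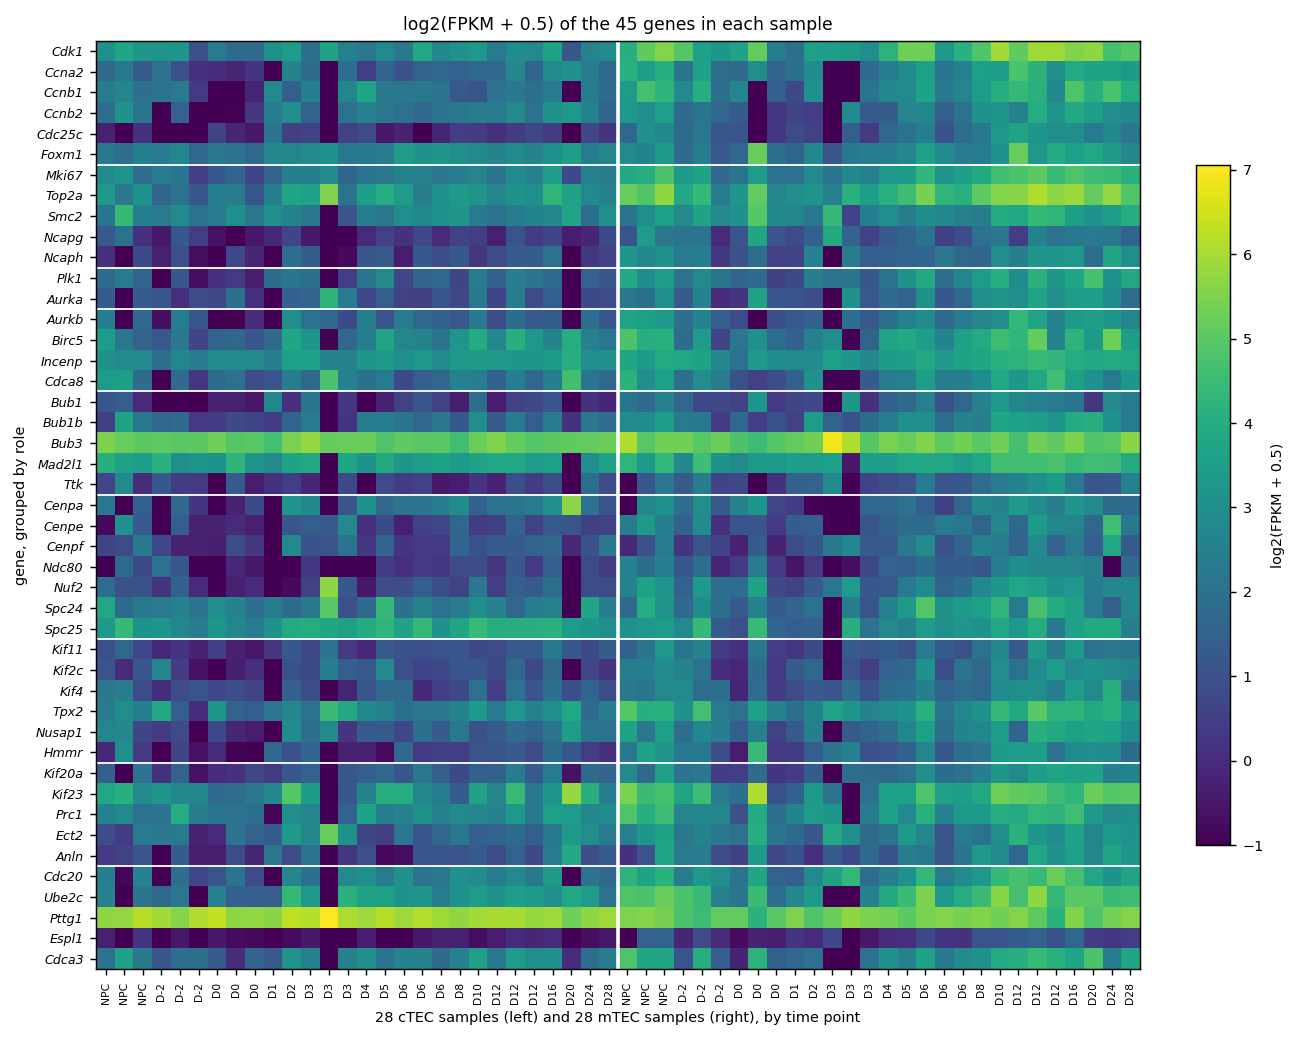
log2(FPKM + 0.5) of the 45 genes (rows, in their 9 roles divided by white lines) in 28 cTEC samples (left) and 28 mTEC samples (right) in order of time point. Bub3 and Pttg1 are bright in every sample, and the mTEC block brightens from D10. Samples with many genes at 0 (darkest) include cTEC D1, cTEC D3 replicate 2, cTEC D20 and 2 mTEC D3 samples.

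cTECs and mTECs were then compared at the same stages. The 45 genes were lower in cTECs at each stage by their medians, -1.5 in NPC, -1.32 at D-2, -1.7 in early and -2.0 in late samples, where the medians of all genes were 0.07, -0.08, -0.08 and -0.08. In NPC and at D-2, with 3 samples each, limma-voom called none of the 45, beside 2.83% and 0.805% of all 18394 genes tested. The quasi-likelihood test called 0 and 3, DESeq2 called 2 and 3, and 6 and 7 genes had an unadjusted p under 0.05, against 20.3% and 13.0% of all genes.
In early samples (n = 18 of each cell type, all days from D0 to D12 pooled), 18 of the 45 genes were lower in cTECs (40%), against 14.7% of all genes, and 1 was higher, against 3.95%. At an unadjusted p under 0.05 there were 34, against 47.2% of all genes. The quasi-likelihood test called 17, of which 13 were among these 19, and DESeq2 called 26, with no share of all genes given here for either tool. The genes called lower by the largest amounts were Espl1 at -3.12, Nuf2 at -2.96, Ndc80 at -2.89, Hmmr at -2.70, Ncapg at -2.68, Ncaph at -2.60, Ccna2 at -2.50, Ttk at -2.49, Cdk1 at -2.27 and Nusap1 at -2.18. Espl1 encodes separase, which cuts the cohesin that holds sister chromatids, Nuf2 and Ndc80 are subunits of the NDC80 kinetochore complex, and Ncapg and Ncaph belong to condensin I. Kif4, Cenpe, Cenpf, Plk1, Bub1b, Top2a, Mki67 and Tpx2 made up the rest, with -1.54 for Mki67 (adjusted p = 1.76e-05). By role the medians ran from -0.71 in the chromosomal passenger complex, of which none of 4 genes was called, to -2.03 in the centromere and kinetochore group.
Mki67 had a lowest value, median and highest value of 1.09, 4.42 and 6.96 FPKM in the 18 early cTEC samples and of 3.58, 9.65 and 32.2 in the 18 early mTEC samples. For Top2a these were 1.71, 7.96 and 45.2 in cTECs and 5.14, 18 and 67.4 in mTECs. For Cdk1 they were 2.97, 6.29 and 13.5 and 3.46, 17.5 and 60.6. The 2 cell types overlapped for all 3 genes.
The gap varied among pairs of samples, matched here by time point and number only, since the labels do not tie them to 1 animal. The mean log2 level was higher in the mTEC sample in 24 of the 26 pairs. The difference, mTEC minus cTEC, was 0.96 to 1.67 in the 5 pairs of NPC and D-2, 1.43 to 1.68 in the 4 pairs of D10 and D12 and 1.21 to 1.82 in the 4 late pairs. It was -0.22 in the pair of D2 and -0.95, 0.44 and 0.15 in D3 pairs 1, 2 and 3. The mTEC sample had the higher FPKM for 34 to 41 of the 45 genes in the pairs of NPC and D-2 and for 41 to 43 in those of D10 and D12, against 15, 20 and 23 in the pairs of D3 and 23 in that of D2. The mTEC sample of D3 pair 1 and both samples of D3 pair 2 are libraries of few genes, with 20, 12 (mTEC) and 25 (cTEC) of the 45 genes at a count of 0. Whether the gap differs between days was not tested.
In late samples (n = 4 of each cell type), 11 of the 45 genes were lower in cTECs (24.4%), against 7.19% of all genes, and 36 had an unadjusted p under 0.05, against 35.3%. Mki67 was at 10.5, 1.24, 5.17 and 4.75 FPKM in cTECs of D16, D20, D24 and D28, and every value lay below every late mTEC value given above, for a log2 difference of -2.76 ± 0.51 (SE) (adjusted p = 4.23e-05). Top2a was at 18.6, 11.9, 6.71 and 5.45 in cTECs, also below every late mTEC sample, with a difference of -2.32 ± 0.47 (SE) (adjusted p = 0.000176). Tpx2, which activates Aurora A and nucleates spindle microtubules, was at 7.65, 13.5, 3.05 and 4.71 in cTECs and 18.5, 14.3, 16.7 and 10.1 in mTECs, which overlapped, with a difference of -1.92 ± 0.43 (SE) (adjusted p = 0.000581).
These 3 genes were called whichever of the 8 late samples was left out, and they were the 3 that remained without cTEC D20, one of the libraries of few genes. The other 8 called were Plk1, Ncaph, Kif2c, Cdc25c, Nuf2, Ncapg, Cdk1 and Bub1b, and 5 of their fitted differences were beyond -4, namely those of Plk1, Ncaph, Kif2c, Cdc25c and Nuf2, all of which were at 0 FPKM in cTEC D20. The number called ranged from 3 to 14 over the samples left out, and was 0 by the quasi-likelihood test and 4 by DESeq2 (Cdk1, Mki67, Plk1 and Top2a).
The change from early to late was tested for a difference between the cell types. The median of this difference, cTEC minus mTEC, was -0.61 over the 45 genes and 0.01 over all genes, and none of the 45 was called by limma-voom, the quasi-likelihood test or DESeq2, beside 0.00544% of all genes. Of the 45, 8 had an unadjusted p under 0.05, against 11.1%. For Mki67 the difference was -1.21 ± 0.59 (SE) (adjusted p = 0.429).

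Pttg1, Bub3 and Spc25 differed from most of the list in mTECs at D12 against D-2 or between the cell types. They were chosen after their values were seen. Pttg1 (securin, the inhibitor of separase) and the checkpoint protein Bub3 were among the most abundant of the list in cTECs and mTECs. Pttg1 was at 38.5, 59.3 and 133 FPKM (lowest, median, highest) over the 28 cTEC samples and 17.1, 41.4 and 52 over the 28 mTEC samples. In mTECs it was at 44.5, 46.8 and 42.2 in NPC, 27.4, 22.4 and 34.3 at D-2 and 46.6, 32.7 and 17.1 at D12. Every D-2 sample lay below every NPC, D3 and D6 sample of mTECs. The estimate for D12 against D-2 was -0.13, with an interval of -0.76 to 0.49. In early samples Pttg1 was higher in cTECs by 0.80 ± 0.12 (SE) on the log2 scale (adjusted p = 1.06e-07), a fold of 1.74 that is below the threshold of 2, and in late samples the estimate was 0.21 with an interval of -0.19 to 0.61.
Bub3 was at 23.3, 33.9 and 53.6 FPKM in cTECs and 22.5, 36.9 and 118 in mTECs, where the 2 highest values, 118 and 68.8, belong to the 2 mTEC D3 libraries of few genes. Its estimate was 0.06 in mTECs between D-2 and D12 (-0.42 to 0.54), -0.09 between the cell types in early samples (-0.25 to 0.07) and -0.02 in late ones (-0.32 to 0.27), all of them 95% intervals.
Spc25, a subunit of the same NDC80 complex as Nuf2 and Ndc80, was the single gene called higher in early cTECs, by 1.30 ± 0.34 (SE) (adjusted p = 0.00132). Its early values were 4.36, 13.8 and 20.8 FPKM in cTECs and 0, 7.0 and 21.2 in mTECs (lowest, median, highest). At D0 it was at 9.12, 5.96 and 4.36 in cTECs and 1.44, 21.2 and 2.61 in mTECs, and at D12 at 15.8, 16 and 16 in cTECs and 9.32, 15.3 and 4.25 in mTECs. All D12 mTEC samples lay below all D12 cTEC samples, whereas mTEC D0 replicate 2 lay above all 3 cTEC samples of its day. In late samples the estimate was -0.54 (-1.58 to 0.49).

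Other parts of the cell cycle were counted from lists of their own. Of 31 genes of G1/S and DNA replication, 3 rose in mTECs at D12 against D-2 (9.68%, against 0.124% of all genes), namely Uhrf1 by 2.7, Mcm5 by 2.09 and Mcm2 by 1.87 (log2), and 31 of 31 estimates were positive with a median of 1.23. None of the 31 was called by the quasi-likelihood test, with the replicate block, without D12 replicate 2 or without D-2 replicate 4. Mcm5 alone was called without D12 replicate 3 or D-2 replicate 1, and Mcm2 and Mcm5 by DESeq2. At D-2 against NPC 2 of the 31 fell (6.45%, against 0.0507% of all genes), Mcm3 by 2.15 and Mcm5 by 1.64, with a median of -0.73. Both calls were lost with the quasi-likelihood test, sample weights, the replicate block or a fit on 2 time points, and on leaving out any sample but NPC replicate 4. Between the cell types 3 of the 31 were lower in early cTECs, a share of 9.68% that is below the 14.7% of all genes. In late samples 8 were lower (25.8%, against 7.19%), the largest being Pole at -4.56 and Rrm2 at -4.04, and 3 were lower without cTEC D20, 4 without cTEC D28 and 2 by the quasi-likelihood test. Of 13 G1 cyclins, kinases and CDK inhibitors, 3 were lower in early cTECs (23.1%, against 14.7%), namely Ccnd2, Cdkn2b (-1.85) and Cdkn1c (-1.5), and none passed elsewhere. Of 11 DREAM and MuvB subunits, Mybl2 was lower in early cTECs (-2.16) and Tfdp1 in late ones (-1.29), each 9.09% of the list against 14.7% and 7.19% of all genes, and Tfdp1 was not called without cTEC D20. Of 14 core subunits of the anaphase-promoting complex, none passed in any of the 15 comparisons of limma-voom, and their medians lay between -0.3 and 0.22.

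Markers of other cell types moved with some of these results, and their part in them was not tested. In mTECs the summed level of 5 pan-leukocyte markers was 260 to 307 FPKM in NPC, 221 to 292 at D-2, 73 to 223 at D3, 57.4 to 220 at D6 and 318 to 429 at D12, so that, as for the mitotic genes, all D12 samples lay above all D-2 samples. The leading gene was Laptm5, with a median of 114 FPKM. Ptprc, which encodes CD45 and defines leukocytes, was at 0.35 to 2.04 FPKM at D-2 and 0.53 to 1.67 at D12. The 14 macrophage and dendritic cell markers summed to 67.7 to 106 at D-2, 20.7 to 65.8 at D6 and 97.9 to 153 at D12, led by Lyz2, and 2 of them had a median of 0. The 20 thymocyte markers summed to 37.2 to 52.5 at D-2 and 59.3 to 86.4 at D12, without overlap. Cd3e was at 0 to 0.58 and 0 to 0.98 FPKM in these groups. The 6 erythroid markers summed to 16.4 to 25.5 at D-2 and 30.2 to 49.7 at D12, also without overlap. The B cell, endothelial and fibroblast sums overlapped between these groups.
In late against early mTECs, 10 of 11 macrophage and dendritic cell markers had positive estimates with a median of 1.31, and their sum was 87.5 to 235 FPKM in late and 20.7 to 153 in early samples. The medians were 1.29 for 5 erythroid markers, 0.85 for 7 fibroblast markers and -1.05 for 9 cTEC markers, beside 0.84 for the mitotic genes, and no gene of these lists was called.
In cTECs the thymocyte sum was 65 to 373 FPKM in NPC, 44.6 to 52.3 at D-2, 59.1 to 96.3 at D0, 164 to 215 at D6 and 269 to 306 at D12, and Rag1 went from 0.27 to 1.36 at D-2 to 7.2 to 11.1 at D12. All D-2 and D0 samples had a lower thymocyte sum than all D6 and D12 samples, as they had a lower mean log2 level of the mitotic genes. Between the cell types the thymocyte markers pointed the other way from the mitotic genes, with 11 of 20 called higher in early cTECs (55%, against 3.95% of all genes). Of the 14 macrophage and dendritic cell markers 11 were tested, and 5 of these (45.5%) were lower in early cTECs and 5 in late ones, against 14.7% and 7.19% of all genes, with Adgre1, Mrc1, Flt3 and Lyz2 in both. In late samples 2 of them were called without cTEC D20 or cTEC D28 and 0 by the quasi-likelihood test. Of 4 pan-leukocyte markers tested, Laptm5 and Cd52 (50%) were lower in both, the same direction as the mitotic genes. Ptprc pointed the other way, with medians of 2.01 FPKM in early cTECs and 0.76 in early mTECs. In late samples its medians were 2.86 in cTECs and 0.645 in mTECs. Adgre1 (F4/80), a defining macrophage marker, was at 0 to 4.18 FPKM in mTECs and at 0 to 0.48 in cTECs. Csf1r, from the same list, did not separate the cell types, at 0 to 4.19 FPKM in mTECs and 0 to 4.48 in cTECs.

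**Figure D5:**
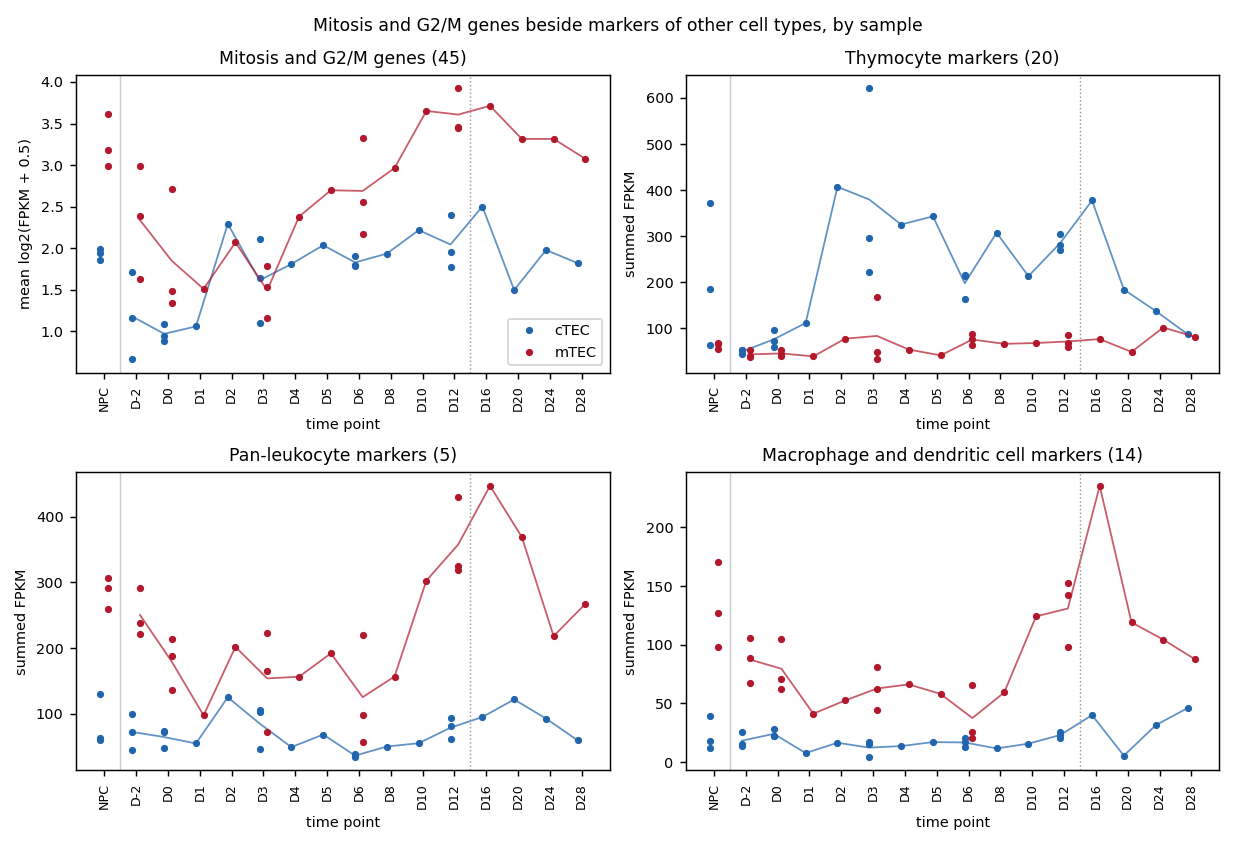
The mean log2(FPKM + 0.5) of the 45 mitosis and G2/M genes (top left) beside the summed FPKM of 20 thymocyte, 5 pan-leukocyte and 14 macrophage and dendritic cell markers in each cTEC (blue) and mTEC (red) sample, with lines joining time point means from D-2 on. In mTECs the pan-leukocyte sum is 318 to 429 at D12 and 57.4 to 220 at D6, and the macrophage and dendritic cell sum 97.9 to 153 and 20.7 to 65.8. Thymocyte markers in cTECs are lowest at D-2.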

How the data were processed

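Stranded polyA RNA-seq libraries of sorted cTECs and mTECs were sequenced by the authors on a NextSeq 500. Per the labels and the study's methods, demultiplexing with bcl2fastq 2.20 and trimming with Trimmomatic 0.35 were followed by alignment to GRCm38 with STAR 2.5.1b and quantification with RSEM 1.2.28. The deposited tables hold the expected count, TPM and FPKM that RSEM gave the authors for 50600 genes, and 50376 identifiers were matched to GENCODE M21 symbols. Groups followed the labels, and replicates carry the numbers of the sample titles.

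Expected counts were rounded and tested with limma-voom (limma 3.58.1, edgeR 4.0.16 for TMM, R 4.3.3) in genes whose FPKM averaged 0.5 or more across the 28 samples of a cell type, or across those of either for comparisons between them. Calls needed a fold change of 2 and an adjusted p of 0.01 over all genes (Benjamini-Hochberg), in 15 comparisons. Early is D0 to D12 (n = 18) and late D16 to D28 (n = 4, 1 per time point), so p-values there include the spread between days. edgeR's quasi-likelihood test and DESeq2 1.42.0, no filter, other scalings, sample weights and left-out samples were alternatives. FPKM levels are on log2(FPKM + 0.5), and TPM served as an alternative. On simulated data with 200 genes changed 4-fold, limma-voom recovered 23.5% for D6 against D-2 in cTECs (15845 genes), 56% for late against early mTECs (17743 genes, 15.8% of calls false) and 57% for the cell types in early samples (18394 genes). Each gene was simulated from 1 mean across samples, apart from the changed genes, so libraries of few genes were not modelled. No other comparison was simulated, so none of these shares covers mTECs at D12 against D-2. RSEM splits shared reads between copies, so pseudogenes can move a value.

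The members and lists were chosen with earlier results of these data known. Per-sample values were given for 12 genes fixed by name, and otherwise for called members. Those not called whose fits are printed, and the spans of days, were chosen after their values were seen.

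Same-numbered samples of different groups had correlations from -0.171 to 0.135. The labels do not tie them to 1 mouse, so the numbers were not taken as pairs. The mean log2 level of the 45 genes still ranked the numbers alike in both cell types at D-2 and D0. At D-2 replicates 1, 3 and 4 were at 1.16, 1.72 and 0.67 in cTECs and 2.39, 2.99 and 1.63 in mTECs. At D0 replicates 1, 2 and 4 were at 0.94, 1.09 and 0.88 and at 1.48, 2.72 and 1.35. At D3 and D12 the orders differed. Whether same-numbered samples share a mouse was not tested. RefSeq promoter windows were not used here for 8 members with no entry in the table.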

Additional observations from a re-analysis of the deposited data

Results flagged for a closer look

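Among the 4 late samples of each cell type, single samples lay far from the other 3 in 8 of 92 sets tested (Dixon's criterion at the 95% level). The usual rate of about 1 in 20 by chance assumes normally distributed values from like samples. These samples come from different days and the sets share libraries, so the count cannot be compared with that rate. The cTEC sample of D20, a library with few genes detected, was far above the others for Birc5 (15.55 FPKM), Cdca8 (24.17), Cenpa (49.61) and Nusap1 (10.56), while 15 of the 45 genes had a count of 0 in it. In mTECs, Cenpe reached 23.71 FPKM at D24 and Kif11 9.55 at D16. Hmmr was at 3.13 FPKM at D28, and Espl1 at 2.76 at D16, each apart from the other 3 late mTEC samples. The part of library quality in these values was not tested.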

How the results depend on the processing

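The differences in mean log2 level between time points kept their direction and moved by less than 1 SD in 24 of 24 changes of scale (pseudocount or TPM). Leaving out 1 sample at a time, chosen after seeing the data, gave -1.01 to -0.49 (cTEC D-2), 0.18 to 0.7 (D3), 0.39 to 0.92 (D6) and 0.61 to 1.13 (D12), and in mTECs -1.25 to -0.57, -1.2 to -0.52, 0 to 0.68 and 0.91 to 1.6. Among these, mTEC D6 was 0 and D12 0.91 without D-2 replicate 4. For the calls, the count of calls between the cell types in early samples ran from 15 to 28. Elsewhere calls depended on the setting. The counts of calls in this section are given without the share of all genes called at each setting, so they cannot be set against a background. With DESeq2 the counts were 2 in the 4 comparisons within cTECs against NPC or D-2 and between cell types in NPC, 1 in mTECs at D12, 3 between cell types at D-2 and 4 in late samples. With the quasi-likelihood test they were 1 in cTECs at D6 and at D12, 0 in mTECs at D12, 3 between cell types at D-2 and 0 in late samples. An adjusted p of 0.05 gave 1 in cTECs at D6 and at D12, 2 in mTECs at D-2, 21 in mTECs at D12, 1 between cell types in NPC and at D-2, and 25 in late samples. Sample quality weights gave 1 in cTECs at D6, 3 in cTECs at D12, 2 between cell types at D-2 and 3 in late samples. Without a filter there was 1 in cTECs at D12, 1 in mTECs at D-2, 1 in late against early mTECs, 1 between cell types at D-2 and 4 in late samples. A fit on 2 time points only gave 12 in mTECs at D12, and D12 counted as late gave 5 in late against early mTECs and 33 between late cell types. Without the 4 libraries of few genes, 3 remained between late cell types. The causes were not tested.

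The median log2 fold change moved to 0.52 in late against early cTECs and to 0.03 in mTECs at D3 without those 4 libraries, and to -0.97 in mTECs at D-2 and -1.77 between cell types in NPC with DESeq2. In mTECs at D6 it was 0.38 with the quasi-likelihood test, 0.33 with DESeq2 and 0.52 with weights, at D12 1.37 and 1.34 with the first 2 of these, and between late cell types -1.6 with weights. Motifs sought on the sense strand alone were found in 51.4% (CCAAT), 59.5% (CHR) and 35.1% (both) of the member windows, against 21.7%, 11.5% and 2.6% of all.

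With a replicate block, although the labels do not give the numbers as pairs, the median was 0.58 in mTECs at D6 and 1.59 at D12. It gave 0 calls at D12 and 1 between cell types at D-2.

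Leaving out 1 sample at a time moved the medians from -1.17 to -0.65 (cTEC D-2), 0.1 to 1.33 (D3), 0.74 to 1.44 (D6), 0.81 to 1.81 (D12) and -0.07 to 0.67 (late against early). In mTECs these ranges were -1.64 to -0.33, -2.17 to -0.01, 0.07 to 1.66, 1.28 to 2.56 and 0.66 to 0.9. Between cell types they were -1.63 to -1.38 in NPC, -2.51 to -0.9 at D-2 and -2.32 to -1.77 in late samples, and -0.75 to -0.22 for the difference between the cell types. Counts ran from 0 to 2 in mTECs at D12, from 3 to 14 in late samples and from 0 to 1 in mTECs at D3 (Cdca8, without D3 replicate 3). In late samples they were 7 without cTEC D16, 5 without mTEC D16, 3 without cTEC D20, 6 without cTEC D24 and 4 without cTEC D28.

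Cenpe in mTECs at D-2 turned to 0.35 without D-2 replicate 4 and ran from -3.47 to 0.35 over the samples left out. Estimates near 0 changed sign without a call. Bub3 in mTECs at D12 went to -0.11 (quasi-likelihood), -0.12 (DESeq2), -0.04 (weights), -0.08 (replicate block) and -0.02 (2 time points, or without the 4 libraries), with -0.22 to 0.15 over left-out samples. Between late cell types it went to 0.03 (no filter, or D12 as late), with -0.07 to 0.08 over left-out samples. Pttg1 in mTECs at D12 was 0.02 with the quasi-likelihood test and 0 with DESeq2, with -0.54 to 0.2 over left-out samples.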
